A study of Oryza sativa Japonica Group with 9 samples.

Results

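The demethylase JMJ705 was mapped on rice chromatin in 2 backgrounds, and the regions described here are peaks that were listed in the wild-type background, were not met by any peak in the wox11 mutant background, and lay at transcribed genes. Of 1551 peaks called in the wild-type background, 1115 had no overlap of at least 1 bp with any of the 1309 peaks of the wox11 background. Of these 1115, 424 lay within 1 kb of at least 1 named locus with a mean of at least 1 FPKM in wild-type apices, and these 424 are the wild-type-background-only peaks at expressed loci. Another 455 lay within 1 kb of named loci below that level, called silent here, and 236 had no named locus that near. FPKM is the number of sequenced fragments scaled by transcript length and library size. The peaks were chosen by overlap between the peak lists and by the wild-type level, so neither is a finding about them.

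JMJ705 is a JmjC-domain histone demethylase that acts on H3K27me3, the methyl mark laid by Polycomb repressive complexes over genes kept off or low in a given tissue. Removing the mark opens such genes to transcription, and DNA-binding factors can bring such enzymes to their sites. WOX11 is one such factor, a WUSCHEL-related homeobox protein known in rice for its part in crown root emergence and shoot growth. The study asked where JMJ705 sits in the shoot apex and whether that depends on WOX11.

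All material was the shoot apex, a piece of 2 to 3 mm with the meristem and youngest leaves, from 5-day-old seedlings of Oryza sativa Japonica Group. Growth conditions were the same for every library. Days lasted 14 h and nights 10 h, and the temperature was set to 28 °C by day and 24 °C by night. Anti-FLAG chromatin immunoprecipitation gave 1 library from a JMJ705 over-expression line in the wildtype background and 1 from JMJ705 over-expression in the wox11 mutant background. Both over-express JMJ705 by their labels, and how much JMJ705 either carries is not known here. Transcripts were measured in Hwayoung wild type, the wox11 mutant and the jmj705 mutant without the over-expression, with 2 libraries each. The labels name neither the promoter of the over-expression, nor how many lines were used, nor the lesion of either mutant. The meristem genes OSH1, OSH71 and OSH15, KNOX homeobox genes that mark the apex, stood at 53.1 and 66.3, 49.9 and 51.8, and 38.1 and 41.4 FPKM in the 2 wild-type libraries. After removal of duplicate tags the wild-type-background library held 4488720 tags against 15531116 in its control, and the wox11-background library held 6811451 against 11816531. With 1 library per background the absence of a peak in the other list has no replicate check, and no p-value is given for it. Depth of the transcript libraries is unknown, since FPKM carry no counts.

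The 424 peaks were mostly narrow and modest. Their median length was 894 bp, from 341 to 4926 bp, and their median tag number was 31, from 17 to 1798. Fewer than 50 tags lay under 367 of them and more than 100 under 4. The authors' fold enrichment over control had a median of 6.16 with quartiles of 5.32 and 7.54, and the authors' score, which is -log10(p) multiplied by 10, had a median of 67.3. The 147 wild-type-background peaks at expressed loci that did overlap a wox11-background peak stood higher on each measure, with medians of 46 tags, a score of 123 and a fold enrichment of 9.47. The 455 wild-type-background-only peaks at silent loci resembled the 424, with medians of 34 tags, a score of 73.0 and a fold of 6.21. The peak with the most tags, 1798 over 4926 bp of chromosome 4 (9205837 to 9210762), also had the lowest fold enrichment, 2.21.

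Whether a wild-type-background peak at an expressed locus was met in the other list went with its score. Among the 571 such peaks, cut into 4 classes of like size by score, overlap was found for 11.8% of the lowest class, 13.4% of the next, 24.6% of the third and 53.1% of the highest. The 424 peaks therefore include 127 of 144 peaks of the lowest class and 67 of 143 of the highest. Read from the other side, 331 of 477 wox11-background peaks at expressed loci (69.4%) had no partner in the wild-type-background list, beside 74.3% (424 of 571) for wild-type-background peaks. Over all peaks, near loci or not, the shares without a partner were 66.5% (871 of 1309) in the wox11 background and 71.9% (1115 of 1551) in the wild-type background, so the shares at expressed loci lay near those of the whole lists. The authors' false discovery rates were 1.3 to 3.49% (median 1.64%) for the 424. For the 331 wox11-background peaks without a partner they were 5.61 to 50% (median 6.07%), so the lists are not alike in this measure. The part of peak height, of unequal library depth and of these rates in the 424 was not tested. A near miss was rare, since 6 of the 424 had a wox11-background peak within 1 kb and 39 within 10 kb, and the median distance was 106636 bp.

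**Figure D1:**
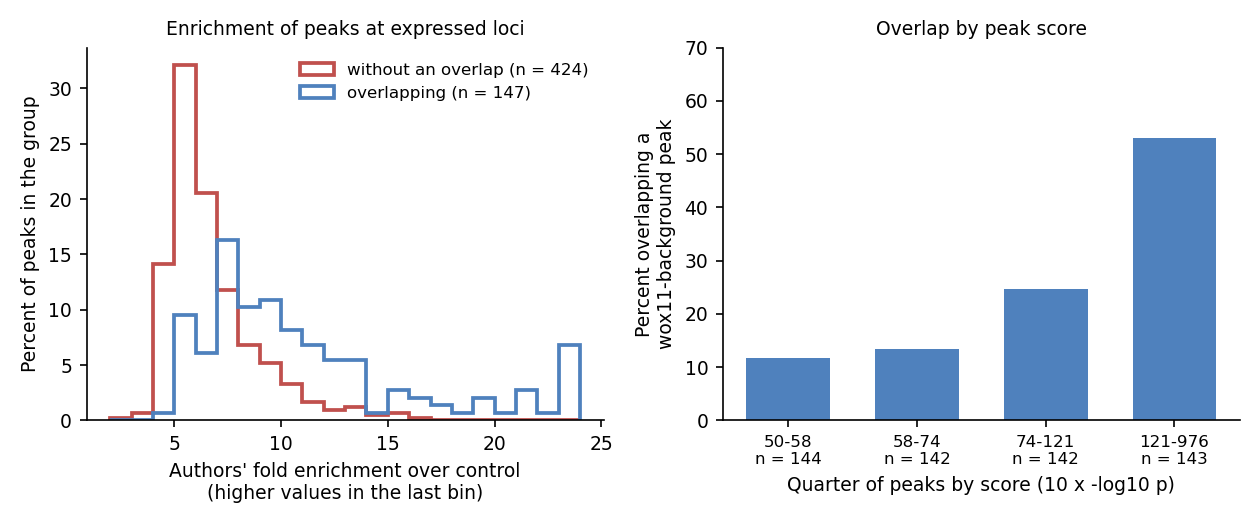
Left, the authors' fold enrichment over control (x axis) of wild-type-background peaks at expressed loci, as the percent of peaks in each group (y axis), for the 424 without and the 147 with an overlapping wox11-background peak. Right, the percent of these 571 peaks that overlap a wox11-background peak (y axis) in each of 4 equal classes by score (x axis), which goes from 11.8% in the lowest class to 53.1% in the highest.

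The 8 peaks of highest fold enrichment sat at loci that did not pass in any contrast. Of all 21480 tested loci 0.838% passed in wox11 against wild type and 0.4% in jmj705 against wild type. The share was 0.284% in jmj705 against wox11. At such shares few loci can easily hold no call, so nothing is read from its absence here. The first, on chromosome 7 (5549866 to 5550425, 44 tags, 16.9-fold), lay inside LOC_Os07g10350, which stood at 67.0 and 59.0 FPKM in wild type, 63.3 and 66.2 in wox11 and 64.5 and 48.8 in jmj705. The second, on chromosome 1 (31252187 to 31253153, 43 tags, 16.0-fold), lay inside LOC_Os01g54300, at 27.0 and 23.0 FPKM in wild type, 29.0 and 22.0 in wox11 and 22.1 and 24.7 in jmj705. At both loci the genotypes overlapped. The others were 15.1-fold at LOC_Os11g04740, 15.0-fold at LOC_Os08g13890, 14.8-fold at LOC_Os03g44484, 14.7-fold at LOC_Os03g38490, 13.8-fold at LOC_Os03g05334 and 13.7-fold at LOC_Os01g61620. LOC_Os11g04740 and LOC_Os08g13890 share their coordinates in the expression tables with further named loci (7 and 4 loci on 1 span), so which gene lies under the peak is uncertain. No locus at the 8 peaks passed in any contrast, the lowest adjusted p being 0.561 for LOC_Os03g05334, 24.7 and 28.5 FPKM in wild type against 23.7 and 17.2 in wox11. The files give locus names with no descriptions, so no function is stated for loci named by identifier.

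The peaks were spread over all 12 chromosomes, from 57 on chromosome 1 to 17 on each of chromosomes 9, 10 and 12. Per 1000 expressed loci this was 14.8 on chromosome 12 and 27.6 on chromosome 11. The median gap between neighbouring peaks was 531246 bp, and 11 neighbouring pairs lay within 10 kb of each other.

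All 424 peaks lie within 1 kb of an expressed locus by choice, and 374 (88.2%) overlapped one while 50 lay beside it. That count takes in 104 peaks whose expressed loci all share coordinates, often long spans, where overlap with a gene is not known. For 320 peaks at least 1 expressed locus within 1 kb has coordinates that no other named locus shares, and 274 of these peaks overlapped such a locus. Measured against the nearest locus of that kind, the summit fell inside in 250 of the 320 (78.1%). Summits lay close to an end of the locus, at a median of 473 bp from it, with 164 (51.2%) within 500 bp. Shared peaks at expressed loci had 68.2% of summits inside and 53.3% within 500 bp of an end, and wild-type-background-only peaks at silent loci had 53.2% and 45.4%. The median locus around the 250 summits that fell inside was 3880 bp long. The tables give no strand, so start and end of a gene cannot be told apart, and exons, introns and untranslated regions were not used here.

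**Figure D2:**
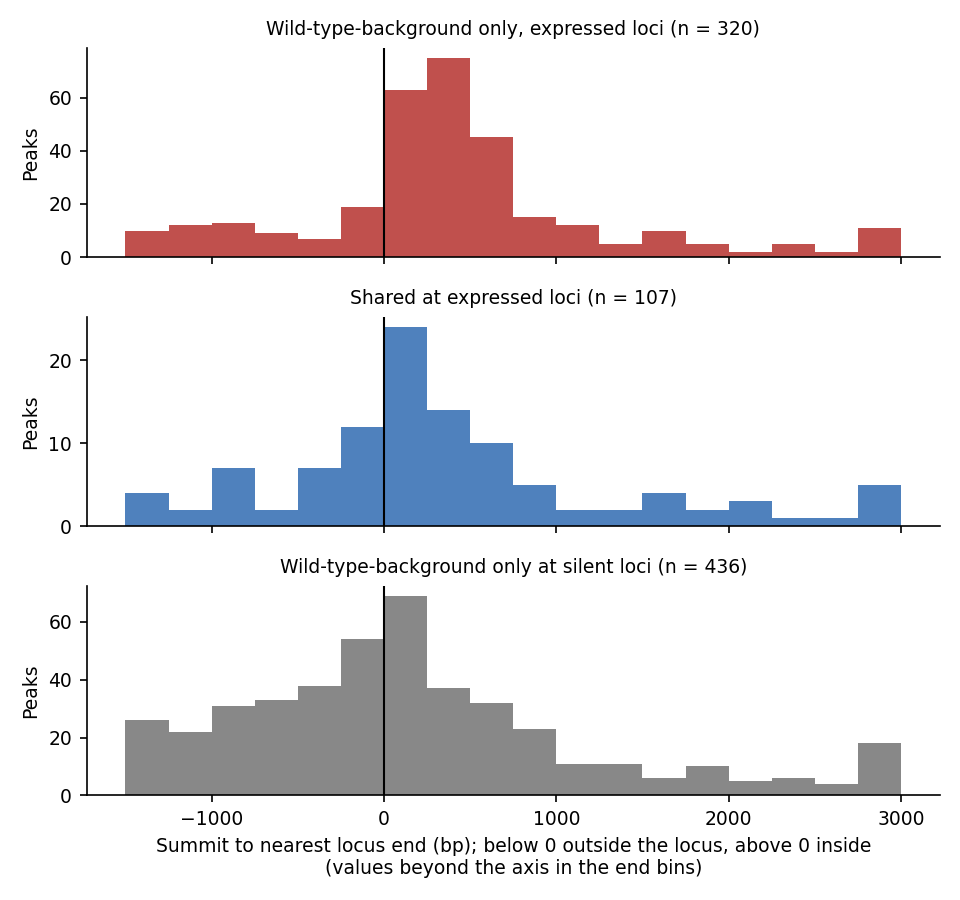
Distance in bp from each peak's summit to the nearest end of the nearest locus with coordinates of its own (x axis, negative outside and positive inside the locus) and number of peaks (y axis), for 320 wild-type-background-only peaks at expressed loci, 107 shared peaks at expressed loci and 436 wild-type-background-only peaks at silent loci. Of the 320, 250 lie to the right of the locus end, marked by the vertical line.

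The 424 peaks touched 644 expressed loci in 703 pairs. Of these loci 355 have their own coordinates and 289 share them with other named loci, in spans that join many loci, so that the second kind can be far from the peak. In the 355, wild-type levels had a median of 9.97 FPKM, with quartiles of 4.10 and 24.7 and the range from 1.01 to 471. All 16854 expressed loci with own coordinates had a median of 14.0 FPKM, and the 112 at shared peaks 9.85. By level, the peaks lay at 2.51% of loci of 1 to 5 FPKM (103 loci), 2.04% of those of 5 to 50 (208) and 1.71% of those of 50 or more (44), and shared peaks at 0.878, 0.58 and 0.66%. Over the 89, 191 and 40 of the peaks counted at such loci in these classes, the median fold enrichment was 5.86, 6.15 and 6.60. These are descriptions with no test, since the wild-type level entered the choice of the peaks. The median locus length was 3805 bp, against 3772 bp for all expressed loci with own coordinates. The 2 wild-type libraries were within 2-fold of each other at 339 of the 355, and 18 were under 1 FPKM in 1 of them.

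The highest wild-type level with coordinates of its own was at LOC_Os04g47690 (chromosome 4, 28293183 to 28296148), whose 29-tag peak began 94 bp beyond its low-coordinate end. It stood at 468 and 474 FPKM in wild type, 381 and 481 in wox11 and 397 and 440 in jmj705, so wild type lay above jmj705 and within the wox11 range. At the other end, the loci just inside the 1 FPKM limit were LOC_Os08g09790, LOC_Os01g63510 and LOC_Os08g30770 at 1.01, 1.02 and 1.02 FPKM, and those just outside were LOC_Os09g25090, LOC_Os12g39480 and LOC_Os12g01810 at 0.960, 0.948 and 0.947. The peaks just inside the 1 kb limit were 991, 960 and 912 bp from LOC_Os06g36940, LOC_Os04g58140 and LOC_Os01g65986, and those just outside were 1023, 1055 and 1085 bp from LOC_Os06g25950, LOC_Os01g27720 and LOC_Os03g31760.

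Few of the 355 loci had more than 1 peak. LOC_Os06g50679 (chromosome 6, 30670849 to 30677150) had 3, at 25.4 and 18.3 FPKM in wild type, 24.1 and 25.1 in wox11 and 21.6 and 13.8 in jmj705. LOC_Os06g50510, on the same chromosome (30574837 to 30583979), had 2. A shared peak lay near 4 of the loci, among them JMJ705, and any wox11-background peak near 13 (3.66%).

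Levels of the mutated genes were compared with the genotype labels. In the case of WOX11 (LOC_Os07g48560, chromosome 7, 29073043 to 29075687) they were 4.52 and 5.00 FPKM in wild type, 1.49 and 1.11 in wox11 and 4.57 and 7.56 in jmj705. The wox11 libraries lay below all others. Its peak was shared, with 50 tags and 8.22-fold in the wild-type background and 73 tags and 8.95-fold in the wox11 background, so WOX11 is not among the 644 loci. JMJ705 (LOC_Os01g67970, chromosome 1, 39493115 to 39500079) is among them, and stood at 7.41 and 6.73 FPKM in wild type, 8.39 and 8.10 in wox11 and 13.7 and 12.5 in the libraries labelled jmj705. These last were the highest, which goes against the label in size without passing (log2 difference from wild type 0.81, SE 0.13, adjusted p = 0.0634), so directions given for jmj705 rest on its label.

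JMJ705 carried a peak at each end. The wild-type-background-only peak spanned 39497312 to 39500009 (2698 bp, 159 tags, 4.41-fold), within the high-coordinate part of the gene. The other peak, 39492859 to 39494579 (109 tags, 7.38-fold), overlapped a wox11-background peak of 98 tags and 5.16-fold. The 159-tag peak had the third-highest tag number of the 424. Because both ChIP lines over-express JMJ705, chromatin of the native gene and of any added copies cannot be told apart at this locus.

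Genes of shoot development and its hormones were looked up in lists of 107 genes whose names are backed by a RefSeq entry at a like place, of which 87 were expressed. Within 1 kb of the 424 peaks lay 7 of them, JMJ705, QHB, YAB3, DL, GRF11, LHY and GA20ox2, beside 644 of all 20630 expressed loci (3.12%). The lists were chosen with results known, so nothing is read from their share. No KNOX or BELL, HD-ZIP III, auxin and crown root, type-A response regulator, brassinosteroid or cell division gene was among the 7. Of the 88 listed genes tested, 1 was higher and 3 were lower in wox11 than in wild type, 1 higher and 1 lower in jmj705 than in wild type, and 2 higher and 0 lower in jmj705 than in wox11. Of all 21480 tested loci 0.838%, 0.4% and 0.284% passed in these contrasts. The counts take in genes away from the 424 peaks, and with lists so chosen nothing is read from them either.

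Both YABBY genes of the 7, from 7 listed YABBY genes, had their peak inside the gene. YAB3 (LOC_Os10g36420), a transcription factor of the family that patterns leaves and other lateral organs, had a peak of 37 tags and 8.61-fold and stood at 14.2 and 14.1 FPKM in wild type, 8.89 and 11.8 in wox11 and 11.8 and 10.1 in jmj705. DL (LOC_Os03g11600), DROOPING LEAF, needed for the leaf midrib and carpel identity, had a peak of 35 tags and 8.10-fold and stood at 15.6 and 16.1 FPKM in wild type, 8.87 and 13.5 in wox11 and 13.1 and 14.2 in jmj705. Both wild-type libraries lay above all 4 mutant libraries at both genes, and neither passed (for wox11 the log2 differences were -0.43, adjusted p = 0.394, and -0.50, adjusted p = 0.41).

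QHB (LOC_Os01g63510), a WUSCHEL-type homeobox gene known from the quiescent centre of the root, lay just above the 1 FPKM limit and had a peak of 29 tags and 5.74-fold inside it. It stood at 1.13 and 0.900 FPKM in wild type, 0.584 and 0.558 in wox11 and 1.16 and 1.05 in jmj705. The wox11 libraries were the lowest, and the difference did not pass (log2 -0.36, SE 0.18, adjusted p = 0.559).

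GA20ox2 (LOC_Os01g66100), a gibberellin oxidase and the gene behind semi-dwarf rice, had a peak of 25 tags and 5.32-fold inside it and stood at 8.13 and 5.55 FPKM in wild type, 5.55 and 2.78 in wox11 and 6.19 and 4.38 in jmj705. The genotypes overlapped or touched. GRF11 (LOC_Os07g28430), a growth-regulating factor, stood at 46.2 and 60.1, 45.9 and 51.2, and 48.1 and 55.7 FPKM in wild type, wox11 and jmj705, with full overlap. Of 2 peaks there, the first had 36 tags and 11.5-fold, and 4 loci share the coordinates of GRF11, so its peaks cannot be assigned to it alone.

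**Figure D3:**
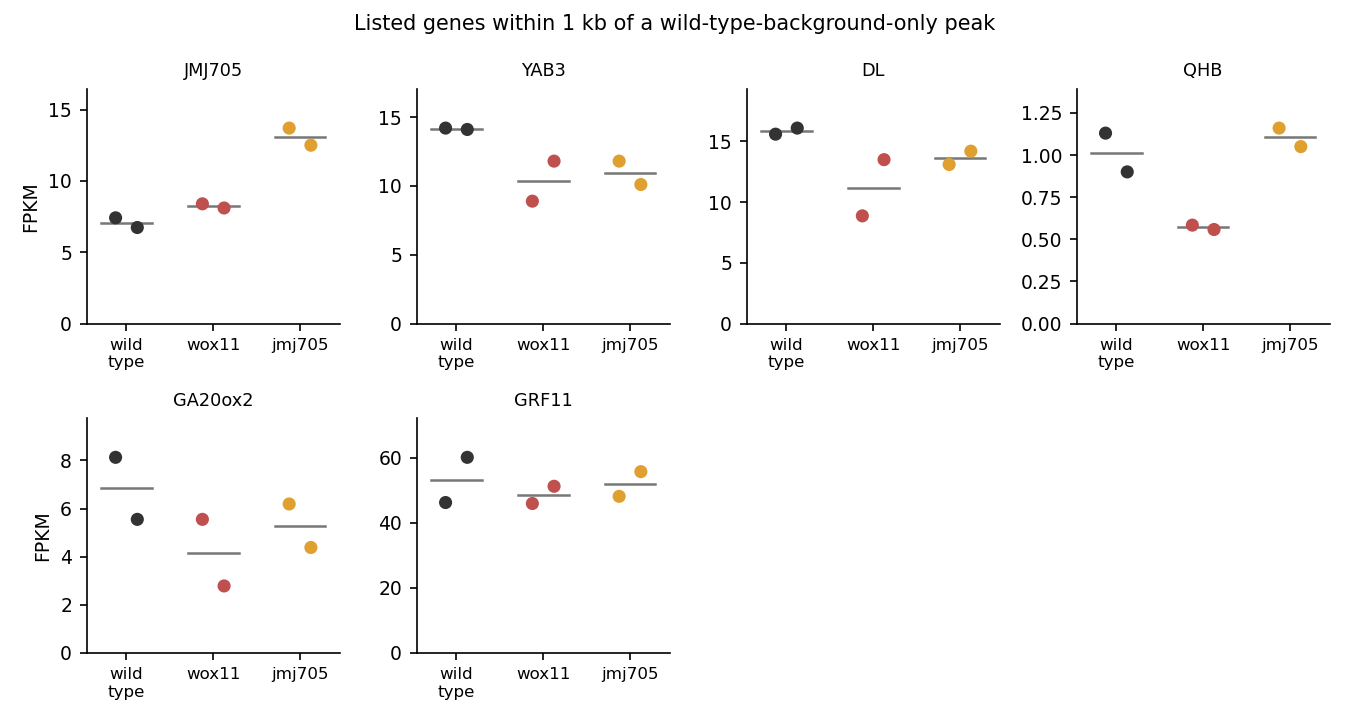
FPKM (y axis) of 6 listed genes at the 424 peaks in each of the 6 libraries, with 2 libraries per genotype (x axis) as points and their mean as a line; the y axis starts at 0 in each panel. JMJ705 is highest in jmj705 and QHB lowest in wox11, and none of the 6 differs by an adjusted p that passes.

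Few of the transcripts at these peaks differed in wox11. Of 642 tested loci 5 were lower and 0 higher in wox11 than in wild type (0.779%), where 0.838% of all 21480 tested loci passed either way, 0.382% downward and 0.456% upward. Of the 20560 tested loci with at least 1 FPKM in wild type, 0.696% passed either way, 0.399% downward and 0.297% upward. At an unadjusted p under 0.05, 54 of the 642 (8.41%) were lower and 29 (4.52%) higher, beside 5.84% and 4.7% of all tested loci and 6.08% and 3.9% of those expressed in wild type. The median log2 change was -0.04 for the 642, with 364 (56.7%) below 0. For all tested loci it was -0.02, with 52.9% below 0, and of those expressed in wild type 54.5% were below 0. The wild-type level chose the 642 loci, so these counts describe them and test nothing. The count rests on few libraries, being 3 without wild-type replicate 1 and 2 without either wox11 replicate. In a fit of the 2 genotypes, or without either jmj705 replicate, it was 6 lower and 1 higher. The median lay between -0.047 and -0.023 without 1 library.

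**Figure D4:**
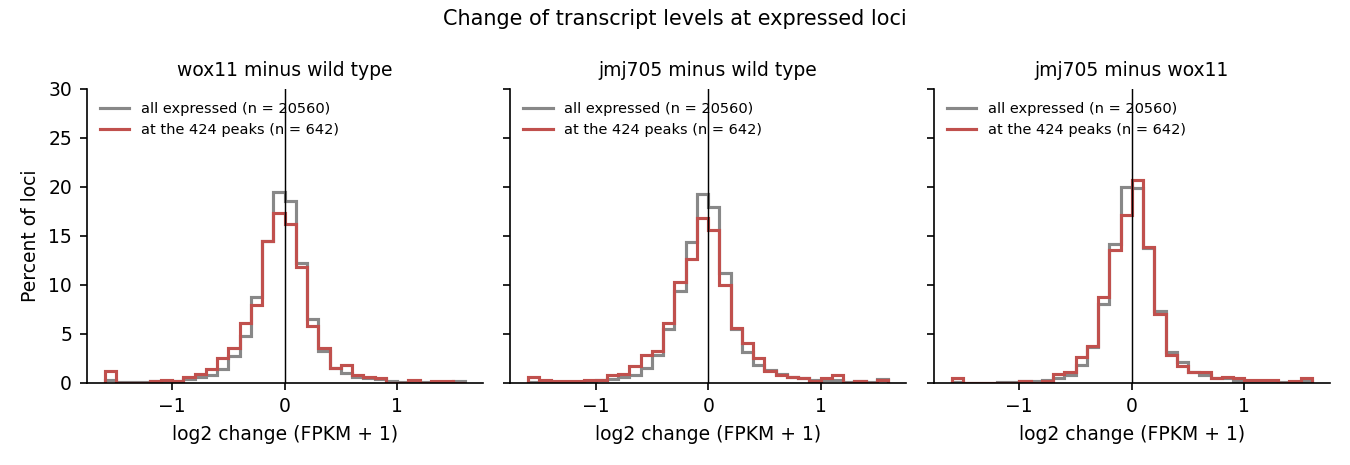
Distribution of the log2 change of FPKM + 1 (x axis, values beyond 1.5 in the end bins) as the percent of loci (y axis) in 3 contrasts, for 20560 tested loci with at least 1 FPKM in wild type and for the 642 tested loci at the 424 peaks. The curves lie close to each other, with medians of -0.04 for the 642 in both contrasts with wild type.

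LHY (LOC_Os08g06110, chromosome 8, 3360786 to 3373471), a MYB factor at the core of the circadian clock, changed most among these loci. Its peak, 3360521 to 3361819 (39 tags, 4.18-fold), covered the low-coordinate end of the gene and 265 bp beyond, and the nearest wox11-background peak was 184516 bp away. That enrichment lay below the lower quartile of the 424 peaks (5.32), whose median distance to a wox11-background peak was 106636 bp. LHY stood at 147 and 123 FPKM in wild type, 5.31 and 4.85 in wox11 and 54.1 and 40.9 in jmj705. The genotypes did not overlap, with wox11 lowest and jmj705 between. It fell in wox11 by 4.48 on the log2 scale (SE 0.16, adjusted p = 6.23e-05), and the range over 16 settings was 2.05e-05 to 0.00503. Of 6 clock genes listed, 1 was higher and 1, LHY, lower in wox11. The labels give the light and dark hours of growth and no hour of harvest.

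LOC_Os02g49680 (chromosome 2, 30361876 to 30363745) stood at 52.5 and 49.4 FPKM in wild type, 9.97 and 7.13 in wox11 and 30.4 and 27.3 in jmj705, again with jmj705 between. It fell in wox11 by 2.46 on the log2 scale (SE 0.16, adjusted p = 0.00127, and 0.000757 to 0.031 over 16 settings). The nearby peak (30364328 to 30364905, 20 tags, 5.76-fold) lay 582 bp beyond it and on another expressed locus, LOC_Os02g49690. That locus stood at 1.39 and 1.24 FPKM in wild type, 0.476 and 0.769 in wox11 and 0.437 and 0.970 in jmj705, lower in all 4 mutant libraries without passing (adjusted p = 0.473 and 0.469). Its level was near the 1 FPKM limit, which was set on wild type alone, so nothing is read from this order.

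LOC_Os01g17396 (chromosome 1, 10008036 to 10011595) stood at 6.74 and 6.27 FPKM in wild type, 0.135 and 0.149 in wox11 and 1.96 and 0.392 in jmj705. It fell in wox11 by 2.72 on the log2 scale (SE 0.33, adjusted p = 0.0177), and it no longer passed without any 1 of the 4 wild-type and wox11 libraries (adjusted p 0.0711 to 0.121) or with no FPKM filter (adjusted p = 0.154). A peak of 31 tags and 4.48-fold covered its high-coordinate end. The other 2 falls, LOC_Os12g08760 (wild type 48.6 and 66.2 FPKM against 18.0 and 20.8 for wox11, adjusted p = 0.0109) and LOC_Os12g08830 (9.46 and 9.09 against 4.29 and 3.88, adjusted p = 0.0318), share one span of 225583 bp with 22 named loci and 1 peak, so their distance to that peak is unknown. Neither passed without wox11 replicate 1 or 2 or with no FPKM filter (adjusted p = 0.111 and 0.151), and LOC_Os12g08830 also missed without wild-type replicate 1 or 2 (adjusted p = 0.168 and 0.126).

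With the replicate number as a block, 9 loci passed in wox11 against a background of 1.07%, and all 5 above were among them. The others were LOC_Os12g08770, LOC_Os10g07450, LOC_Os07g04840 and LOC_Os05g38530. The last stood at 125 and 22.5 FPKM in wild type, 10.1 and 0.525 in wox11 and 16.1 and 3.96 in jmj705, so replicate 1 was above replicate 2 in every genotype, and without the block its adjusted p was 0.263.

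The largest differences upward in wox11 were at LOC_Os12g08740, on the same 225583 bp span, and LOC_Os11g47809 (chromosome 11, 28827676 to 28828513). LOC_Os12g08740 stood at 4.66 and 3.68 FPKM in wild type, 13.6 and 12.7 in wox11 and 5.46 and 0.653 in jmj705 (log2 difference 1.46, adjusted p = 0.394). It passed in a fit of the 2 genotypes (adjusted p = 0.0191) and without jmj705 replicate 1 (0.0213) or 2 (0.0194). LOC_Os11g47809 stood at 29.2 and 13.2 FPKM in wild type, 74.5 and 35.6 in wox11 and 38.4 and 49.2 in jmj705 (log2 difference in wox11 1.34, SE 0.42, adjusted p = 0.295). All 4 mutant libraries lay above both wild-type libraries there.

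**Figure D5:**
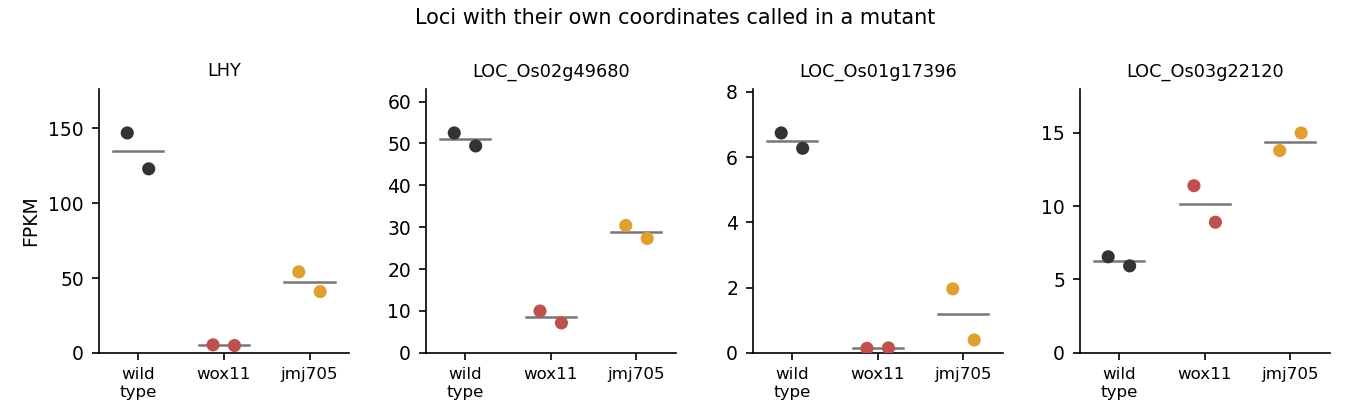
FPKM (y axis) in each library of LHY, LOC_Os02g49680, LOC_Os01g17396 and LOC_Os03g22120, the loci with coordinates of their own that passed in a contrast with wild type, with 2 libraries per genotype (x axis) as points and their mean as a line; the y axis starts at 0. In the first 3, wild type is highest and wox11 lowest, and in LOC_Os03g22120 wild type is lowest and jmj705 highest.

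The jmj705 contrast uses the same wild-type libraries, so its values stand beside those of wox11 and no agreement between them is read. In jmj705, 1 of the 642 loci was higher and 2 were lower than in wild type (0.467%). Of all tested loci 0.4% passed either way, 0.321% upward and 0.0791% downward, and of those expressed in wild type 0.229%, 0.146% and 0.0827%. At an unadjusted p under 0.05, 53 (8.26%) were lower and 40 (6.23%) higher, beside 5.85% and 6.15% of all tested loci and 6.11% and 5.16% of those expressed in wild type. The median log2 change was -0.04, beside -0.02 for all tested loci. LHY fell by 1.49 on the log2 scale (SE 0.16, adjusted p = 0.0187). That fall no longer passed without wild-type replicate 1 or without jmj705 replicate 2, and without either library 0 of the 642 passed.

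LOC_Os03g22120 (chromosome 3, 12674462 to 12680657), with a peak of 26 tags and 4.71-fold at its high-coordinate end, stood at 6.55 and 5.93 FPKM in wild type, 11.4 and 8.91 in wox11 and 13.8 and 15.0 in jmj705. It rose in jmj705 by 1.09 on the log2 scale (SE 0.15, adjusted p = 0.0483), close to the threshold, and missed it under most alternatives, the highest adjusted p being 0.184. LOC_Os11g37250, listed at 0 in both jmj705 libraries and at 10.5 and 14.1 FPKM in wild type and 18.6 and 4.69 in wox11, passed with an adjusted p of 0.0415. It is 1 of 44 named loci on 1 span of 277089 bp, and its adjusted p was up to 0.202 over 16 settings. Its estimate was not marked as failed in any library, since loci so marked were left out of the test. Why it stood at 0 was not tested.

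With the block 5 loci passed in jmj705 (background 0.414%), of which LHY alone had passed without it (adjusted p = 0.0116). LOC_Os11g37250 and LOC_Os03g22120 then missed (adjusted p = 0.06 and 0.0601). The others were LOC_Os10g07450, LOC_Os12g08770 and LOC_Os05g38530, lower, and LOC_Os03g24520, higher. LOC_Os03g24520 (chromosome 3, 13974959 to 13981708) stood at 3.67 and 3.02 FPKM in wild type, 6.38 and 3.83 in wox11 and 11.2 and 8.53 in jmj705, and had a peak of 35 tags and 4.87-fold over its low-coordinate end.

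Set directly against each other, the mutants differed at 2 of the 642 loci, both higher in jmj705 (0.312%). Of all tested loci 0.284% passed, 0.172% upward and 0.112% downward, and of those expressed in wild type 0.131%, 0.0827% and 0.0486%. The log2 differences of this contrast use no wild-type library, while its SE and p-values draw on the spread within all 3 genotypes. LHY was higher in jmj705 by 2.99 on the log2 scale (SE 0.16, adjusted p = 0.000627) and LOC_Os02g49680 by 1.66 (SE 0.16, adjusted p = 0.00827). Both also passed with the block, where the background was 0.321% (adjusted p = 0.00095 and 0.0103), and LOC_Os02g49680 missed without wox11 replicate 2 and without either jmj705 replicate (adjusted p up to 0.0908), so that 1 locus passed without jmj705 replicate 2. Without wox11 replicate 1 or 2, or jmj705 replicate 1, 1 locus was called lower. At an unadjusted p under 0.05, 34 loci (5.30%) were higher and 21 (3.27%) lower, beside 4.23% and 3.08% of all tested loci and 3.94% and 2.87% of those expressed in wild type. The median log2 change was 0.01 for the 642.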

How the data were processed

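The tag counts, scores, fold enrichments (a ratio over control) and false discovery rates (in percent) of the peaks are the authors' deposited values. Per the file headers, MACS 1.4.2 made each list from 1 library and a control, with 1e-05 as the p-value limit. Scores rank peaks within 1 list. The submitters' processing notes name Bowtie2 2.1.0, SAMtools 0.1.17 and Trimmomatic 0.32 for ChIP-seq, and Cufflinks, TopHat and Trimmomatic for RNA-seq. The authors deposited FPKM per locus, and no genome build is named in the sources used here. The sample labelled input DNA was not analysed here.

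Peaks and loci were matched by overlap of at least 1 bp and a distance of at most 1 kb. Loci are those with a name. The test was limma 3.58.1 (R 4.3.3) with a variance trend, applied to log2(FPKM + 1) of the 21480 loci that reach 1 FPKM in 2 or more of 6 libraries. Its model has 1 mean for each genotype and leaves 3 residual degrees of freedom, and p-values were Benjamini-Hochberg adjusted over all 21480 at 0.05. The change of low genes is understated on this scale. The submitters call the 2 libraries of a genotype biological repeats, and p-values measure their spread. The test was checked on simulated data, with 200 of 21480 loci changed in wox11 by a known size on this scale. It called 44.6% of 2-fold and 85.7% of 4-fold changes, and 3.86% of its calls were false. A locus that did not pass can therefore still differ. The simulated noise was normal and independent between libraries, as the test assumes. Real libraries of the same replicate number correlated weakly, so the share of false calls need not hold for them. Per library, the FPKM of named loci added up to 700781 to 821366. This model does not pair libraries across genotypes by replicate number. A fit with that number as a block was run beside it, since the deviations of same-numbered libraries correlated, weakly, at 0.292, 0.118 and 0.114 in the 3 pairs of genotypes. Peaks, lists and rules were chosen with earlier results of these data known. Loci named are WOX11, JMJ705, those at the 8 peaks of highest fold, those that passed, examples of the 5 largest changes per mutant with at least 5 FPKM, listed genes, examples of high wild-type level and those next to the limits. Gene symbols come from RefSeq ASM3414082v1, where 107 listed genes lay within 1.5 Mb of the place in the files, 37 symbols were not found and 12 lay elsewhere, and only the 107 are used. Alternatives were pseudocounts, filters, scaling, the fit, the replicate block, leaving out libraries, and the limits on distance, level, overlap and peak quality.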

Additional observations from a re-analysis of the deposited data

How the results depend on the processing

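Under the alternatives run no called locus changed direction, while some counts that went 1 way gained a call in the other direction. The median of jmj705 against wox11, 0.0068, went to between -0.017 and 0.016 without 1 library. With peaks of a score of at least 100, 97 peaks remained in place of 424, and 89 in place of 374 overlapped an expressed locus. The count of loci that passed in wox11 against wild type, 5, was 2 with no FPKM filter, 9 with the replicate block, 2 with scores of at least 100, and 3 with loci of their own coordinates, an alternative chosen after seeing the data. Leaving out 1 library gave 2 to 7, with 1 of 7 higher without either jmj705 replicate, as in the fit of 2 genotypes. For jmj705 against wild type, 3 became 0 with no FPKM filter, 1 with quantile normalization, 5 with the replicate block and 0 with scores of at least 100, and 0 to 2 without 1 library. For jmj705 against wox11, 2 became 1 with no FPKM filter, 1 with overlap in place of 1 kb and 0 with scores of at least 100, stayed 2 with the replicate block, and was 1 to 3 without 1 library. The median change in wox11, -0.038, was -0.018 with quantile normalization and between -0.047 and -0.023 without 1 library. The median in jmj705 was -0.024 with a pseudocount of 5, -0.054 with a wild-type mean of at least 5 FPKM and -0.028 with scores of at least 100, and lay between -0.05 and -0.026 without 1 library. The replicate block changed no other call of a result given here. The cause of these changes was not tested, except that fewer peaks or loci enter some settings. Of the 424 peaks 367 rest on fewer than 50 tags, each background has 1 library, and the part of depth in the peak lists was not tested.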
